A study of Mus musculus with 2 samples.

Results

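The insulin-like growth factor (IGF) family was compared between cortical fiber cells and epithelial cells of the mouse eye lens. Its members were chosen by gene symbol from results of these data already known, as 6 IGF-binding protein genes (Igfbp2 to Igfbp7), the 2 ligand genes Igf1 and Igf2, and the 2 receptor genes Igf1r and Igf2r. Of these 10 genes, 9 had at least 1 array probe that the platform annotation assigned to that gene alone. They had 11 probes in all, among 15048 such probes of 13709 genes. Igfbp2 had no such probe and was not analysed here.

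Lenses of 13-day-old mice (5 animals) were split with forceps into the cortical fiber mass and the capsule with the epithelium still attached to it. The sources used here give neither strain nor genotype, nor whether the mice were pooled. Poly(A) RNA of each sample was hybridized to 1 array, so no value below has a replicate and no p-value is given. A description field shared by both samples mentions fetal liver RNA, whereas their titles and source names say lens.

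The IGF ligands act through the receptor tyrosine kinase encoded by Igf1r, which signals through insulin receptor substrates to the PI3K-AKT and RAS-ERK cascades. The binding proteins hold IGFs outside the cell and either withhold them from the receptor or keep them near it. The receptor encoded by Igf2r carries no kinase. It takes up IGF-II for degradation and sorts enzymes tagged with mannose 6-phosphate to lysosomes. In the lens, which has no blood supply of its own, IGFs reach the cells through the ocular fluids and are known to act, with fibroblast growth factors, on both epithelial cells and differentiating fibers.

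Values are the deposited normalized intensities, with each array's median close to 1 (0.998 for both). Values below a floor at 0.5 of that median (0.499) were raised to the floor, and differences are log2 cortex minus log2 epithelium. A raised floor, at the array median itself, was tried as an alternative. Of several probes of a gene, the brightest on average stood for the gene, and the others are given beside it. A gene counts below as higher in a sample if its intensity there was 3-fold or more that in the other sample and reached the array median. The only measure of error was the spread between probes of a gene, with a pooled SD of 1.10 on the log2 scale over 558 genes. It compares probes on the same arrays, so it holds no variation between animals or between repeated arrays.

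Of the 9 members with a probe, 1 (Igfbp5) was higher in epithelium and 1 (Igf2r) was higher in cortex. Over all 13709 genes the same rule counted 8.17% as higher in epithelium and 9.41% as higher in cortex. As the members were chosen from this same contrast, nothing is read from their count. A further 3 members (Igfbp3, Igfbp6 and Igf1) lay at the floor on both arrays, as did 24.5% of all genes. Igf2 was above it on 1 array alone. The median log2 difference of the 9 members was -0.14, against 0 for all genes. Over the 5 members above the floor on both arrays it was -0.31, against 0.03 for the 8351 such genes.

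**Figure D1:**
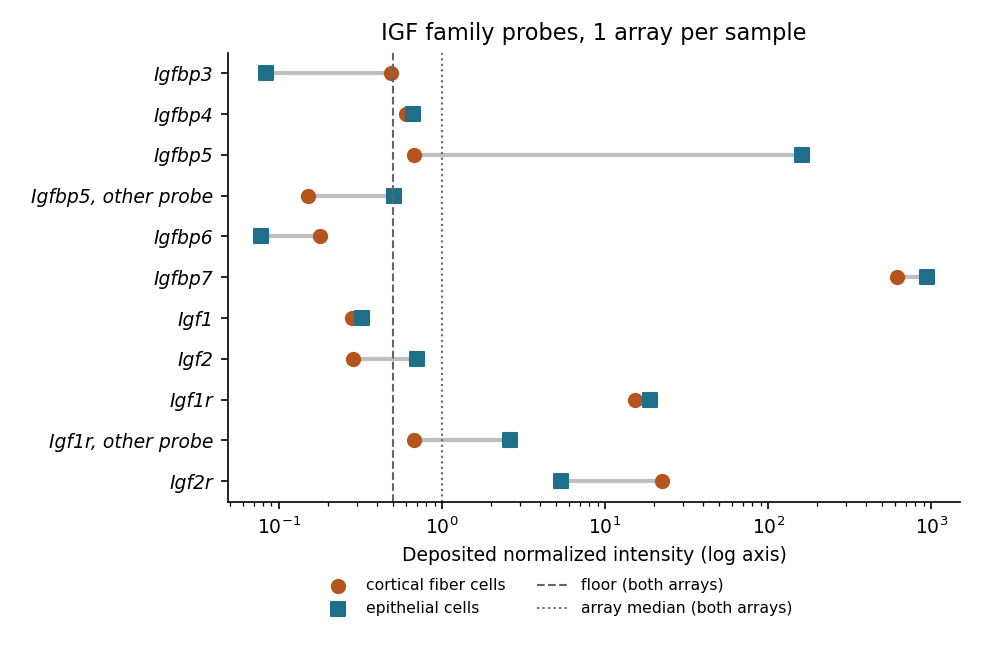
Deposited normalized intensity on a log axis for the 11 probes of the IGF family, with circles for the cortical fiber array and squares for the epithelial array, 1 array each. The vertical lines mark the floor and the array median. Igfbp5 has the widest gap (0.672 to 161), and its other probe lies below the array median in both samples.

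Among the 5 binding protein genes with a probe, Igfbp5 alone passed the rule. Igfbp5, whose product is secreted and can bind extracellular matrix, stood at 161 in epithelium and 0.672 in cortex. Epithelium was thus far above the array median while cortex lay between the floor and the median. The log2 difference was -7.91, a 240-fold gap, which becomes at least 162-fold with the raised floor. Among the 8351 genes measured in both samples, it was ranked 1 in the direction of epithelium, with the deposited scaling. The difference rests on 1 probe. The other Igfbp5 probe stood at 0.507 in epithelium and at 0.151, under the floor, in cortex, so that its difference is a bound of at least 1.02-fold and is not known. With the mean over both probes the gene differed by -3.97, past the 3-fold limit. That mean also rests on the first probe, as the other enters it with a floored value, so it adds no second support.

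The start of Igfbp5 is shown because this gene carries the widest difference of the family. The window holds 250 bases before and 50 bases after the start that RefSeq annotates on GRCm38.p6, at chr1:72874816-72875115 on the minus strand. Capitals mark the single match, on either strand, of TATTTAA, an element similar to the core promoter box of many genes.
Igfbp5: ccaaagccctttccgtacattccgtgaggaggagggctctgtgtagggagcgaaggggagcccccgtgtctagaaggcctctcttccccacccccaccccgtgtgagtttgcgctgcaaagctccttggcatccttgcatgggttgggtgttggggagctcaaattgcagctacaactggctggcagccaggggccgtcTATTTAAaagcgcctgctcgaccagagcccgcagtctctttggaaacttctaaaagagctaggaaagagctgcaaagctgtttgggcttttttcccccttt
The match covers bases 51 to 45 before the start. Of 32851 windows of this length, 4.51% hold TATTTAA. The Igfbp5 window has no GC box (GGGCGG) and 10 CpG dinucleotides, more than 56.5% of all windows have.

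Igfbp7 encodes a secreted binding protein with low affinity for IGFs. It stood at 621 in cortex and 943 in epithelium, so the gene was bright in both samples. Epithelium was 1.52-fold the brighter, a log2 difference of -0.60 that is smaller than the pooled SD between probes. Intensities reached 5411 in cortex but 1061 in epithelium, so the Igfbp7 value in epithelium lay near the top of its array's range. This difference depended on the scaling. It was -2.47 after quantile normalization and -2.05 after loess on brightness, both past the 3-fold limit, and -1.51 after centring on ribosomal protein genes. No second probe was present.

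The window of Igfbp7 (chr5:77407996-77408295, minus strand, GRCm38.p6) is shown beside that of Igfbp5 as the start of the binding protein gene that was bright on both arrays. Capitals mark GGGCGG read on either strand.
Igfbp7: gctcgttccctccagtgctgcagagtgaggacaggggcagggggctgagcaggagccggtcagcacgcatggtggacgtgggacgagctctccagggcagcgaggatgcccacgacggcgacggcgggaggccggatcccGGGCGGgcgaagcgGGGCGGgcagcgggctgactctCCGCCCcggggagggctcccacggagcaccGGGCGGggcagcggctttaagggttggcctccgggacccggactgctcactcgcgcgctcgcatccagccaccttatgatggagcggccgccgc
It holds 4 matches of GGGCGG, a motif present in 35.7% of windows, and none of TATTTAA. Its 33 CpG dinucleotides exceed those of 91.4% of windows. None of the windows of Igfbp5, Igfbp7 and Igf2r holds TATAAA, the common form of that box, which is in 13.6% of windows. The motifs were chosen after these sequences had been seen, and a match describes the letters alone.

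The remaining binding protein genes were dim. Igfbp4 stood at 0.606 in cortex and 0.666 in epithelium, both between the floor and the array median, with a log2 difference of -0.14. Igfbp3 read 0.487 in cortex and 0.0837 in epithelium. Igfbp6 read 0.178 in cortex and 0.0777 in epithelium. Both Igfbp3 and Igfbp6 were thus under the floor throughout, where values have no order, and no fold is given for them.

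Both ligand genes were dim as well. Igf1 read 0.281 in cortex and 0.322 in epithelium, under the floor on both arrays. Igf2 read 0.284 in cortex, under the floor, and 0.698 in epithelium, under the array median. Its bound was at least 1.40-fold towards epithelium, short of the limit, and the difference itself is not known. At this signal over background, no difference in either ligand gene could be measured.

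The receptor genes were above the array median with their brightest probes. Igf1r, the signalling receptor, read 15.2 in cortex and 18.9 in epithelium, which differ by -0.31 on the log2 scale. Its other probe read 0.678 in cortex and 2.61 in epithelium, a difference of -1.94, which passes the 3-fold rule. With the raised floor that probe differed by at least 2.61-fold and no longer passed. Both probes were brighter in epithelium, but their SD of 1.15 (n = 2 probes) exceeds the difference of the brighter one. Counted by probe, 2 of the 11 member probes were higher in epithelium and 1 in cortex, against 7.90% and 9.08% of all probes.

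Igf2r went the other way. It stood at 22.5 in cortex and 5.40 in epithelium, 4.16-fold higher in cortex. The log2 difference was 2.06. Of the 8351 genes measured in both samples, 739 had a more positive difference. Igf2r passed the limit after quantile normalization (1.85) and loess (1.94). Centred on ribosomal protein genes, it differed by 1.14 and did not pass. Igf2r had a single usable probe. In the family as a whole, 1 further probe is annotated to more than a single gene and was left out.

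The Igf2r window (chr17:12769657-12769956, minus strand, GRCm38.p6) is shown as the start of the member that differed in the opposite direction to Igfbp5. Capitals mark GGGCGG and CACGTG, the palindromic E-box, on either strand, and 2 of the GGGCGG matches lie end to end.
Igf2r: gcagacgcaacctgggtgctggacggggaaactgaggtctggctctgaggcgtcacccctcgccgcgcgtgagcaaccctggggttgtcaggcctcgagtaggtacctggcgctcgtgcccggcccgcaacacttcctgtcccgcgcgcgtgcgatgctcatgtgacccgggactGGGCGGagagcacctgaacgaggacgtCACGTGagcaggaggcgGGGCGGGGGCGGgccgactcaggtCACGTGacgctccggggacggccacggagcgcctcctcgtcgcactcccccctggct
There are 3 matches of GGGCGG and 2 of CACGTG, the latter at bases 48 to 43 and 7 to 2 before the start. CACGTG is in 7.15% of all windows, and 0.594% hold it at least 2 times. The window has 34 CpG dinucleotides, more than 92.3% of windows, and no TATTTAA.

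**Figure D2:**
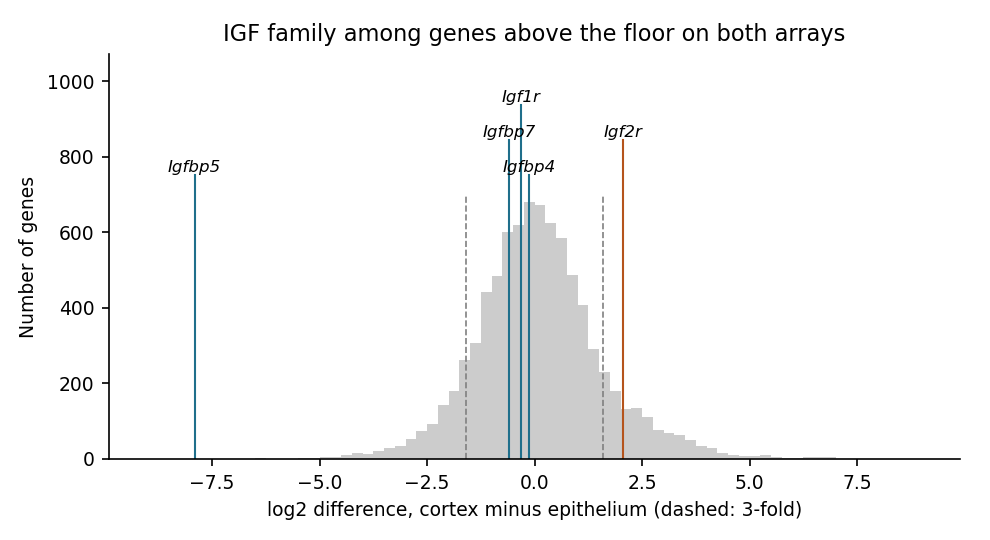
Number of genes by log2 difference, cortex minus epithelium, for the 8351 genes measured in both samples. Vertical lines mark the 5 members among them. Igfbp5 (-7.91) lies at the far left end, Igf2r (2.06) beyond the dashed 3-fold limit on the right, and Igfbp7, Igf1r and Igfbp4 between the limits.

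**Figure D3:**
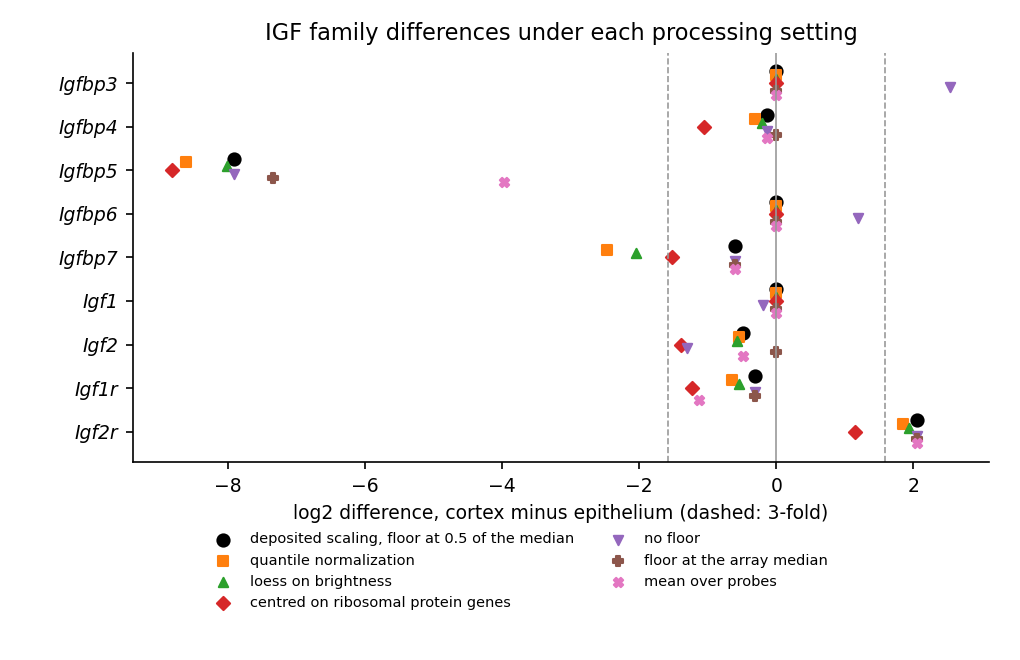
Log2 difference, cortex minus epithelium, of the 9 members under 7 processing settings, 1 symbol per setting, with dashed lines at 3-fold. Igfbp5 is past the limit in each (-8.82 to -3.97), Igfbp7 passes it after quantile normalization and loess alone, and Igf2r is within it when centred on ribosomal protein genes.

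Genes that act with the family were taken from 7 lists by role, 105 genes in all, of which 84 had a probe. Of these, 13 were higher in epithelium and 8 in cortex, or 15.5% and 9.52%, with a median log2 difference of 0. Over all genes the shares were 8.17% and 9.41%, so the count in cortex lies near its background. As the lists were chosen with earlier results of these data known, nothing is read from the higher count in epithelium. The same holds for the counts of single lists below. Below, named genes of these 7 lists had other probes only where these are given, so the rest have no probe to check against.

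Outside the cell, 14 modulators of IGF availability were measured, 2 higher in each direction (14.3% each, against 8.17% and 9.41% of all genes). Pappa, encoding pappalysin, a protease that cleaves IGF-binding proteins, was 11.0-fold higher in cortex (22.8 against 2.07). Both of its other probes were under the floor in epithelium (bounds of at least 3.18-fold and 1.08-fold towards cortex). Igfbp1, the binding protein gene known for its control by insulin in liver, was 7.13-fold higher in cortex (25.2 against 3.53). Igfals, whose product stabilizes IGF complexes in serum, was 6.14-fold higher in epithelium (6.73 against 1.10). Htra1, a secreted serine protease, was 3.69-fold higher there (103 against 27.9). The direction of these 4 genes held after quantile normalization, loess and centring on ribosomal protein genes.

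Of 9 measured genes whose products carry an IGFBP-like domain, 4 were higher in epithelium and 0 in cortex, and 5 did not pass. Over all genes the rule counted 8.17% and 9.41%, and this list too was chosen with earlier results known. With the 3 other scalings the list's counts were the same, though ribosomal centring raised the epithelial count over all genes from 1120 to 2738. With the raised floor 3 list genes were higher in epithelium, and with a 5-fold limit 1. Htra3, a relative of Htra1, stood at 301 in epithelium and 50.2 in cortex (5.99-fold), and its other probe differed by 2.91-fold in the same direction. Ccn2, encoding connective tissue growth factor, stood at 21.7 against 4.83 (4.50-fold). Crim1, a membrane protein known to bind bone morphogenetic proteins, stood at 24.3 against 7.43 (3.27-fold). Ccn1 was under the floor in cortex and at least 3.83-fold higher in epithelium, but no longer passed with the raised floor. The median of the list was 0. Over its 4 members above the floor on both arrays it was -1.94, and of these Ccn3 did not pass (0.984 in cortex and 0.955 in epithelium).

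Of 15 measured receptors and adapters, 1 was higher in epithelium and 2 in cortex (6.67% and 13.3%, against 8.17% and 9.41% of all genes). Insr, the insulin receptor gene, stood at 2.67 in cortex and 0.816 in epithelium (3.27-fold). With the raised floor Insr was at least 2.68-fold brighter in cortex and no longer passed, nor did it when centred on ribosomal protein genes (0.80). Socs2, a feedback inhibitor of growth hormone signalling, stood at 3.50 in cortex and 0.563 in epithelium (6.22-fold), or at least 3.51-fold with the raised floor. Its other probe was under the floor in cortex (at least 1.09-fold the other way). Grb10, an adapter that restrains the IGF1 and insulin receptors, was 8.55-fold higher in epithelium (23.1 against 2.70), while its other probe differed by 0.09 on the log2 scale in the opposite direction. With the mean over probes neither Grb10 (-1.50) nor Socs2 (1.25) passed. Irs1 and Irs2, the main substrates of both receptors, had no probe annotated to them alone and were not analysed here.

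The PI3K, AKT and mTOR list had 22 measured genes, 2 higher in epithelium and 3 in cortex. These are 9.09% and 13.6%, against 8.17% and 9.41% of all genes. Inppl1, encoding the lipid phosphatase SHIP2 that removes the product of PI3K, stood at 95.5 in epithelium and 1.14 in cortex (83.9-fold). It was also 1 of the 3 genes nearest to Igfbp5 by the distance between the log2 values on the 2 arrays (1.07), after Sulf1 (0.90) and before Antxr1 (1.55). Foxo1, a transcription factor that AKT holds out of the nucleus, was 11.8-fold higher in epithelium (13.6 against 1.15). Pik3ca, the p110-alpha catalytic subunit, was 11.4-fold higher in cortex (122 against 10.7). Pik3cb, its beta counterpart, was 4.29-fold higher in cortex (2.98 against 0.695) and lay just short with the raised floor (at least 2.99-fold). Tsc2, a brake on mTOR, was 4.33-fold higher in cortex (88.6 against 20.4), though not after quantile normalization (1.58) or loess (1.55). When centred on ribosomal protein genes, Tsc2 (1.20) and Pik3cb (1.19) did not pass.

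On the RAS and ERK side, 10 genes were measured, 2 higher in epithelium and 1 in cortex. These are 20% and 10%, against 8.17% and 9.41% of all genes. Map2k1, encoding the kinase MEK1, was 3.21-fold higher in epithelium (18.1 against 5.65). Dusp6, an ERK phosphatase, was at least 4.25-fold higher there, and at least 2.13-fold brighter with the raised floor, short of the limit. Spry1, an inhibitor of receptor tyrosine kinase signalling, was 4.52-fold higher in cortex (29.7 against 6.56), and 1.26 on the log2 scale when centred on ribosomal protein genes, which does not pass.

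Of 6 measured genes for IGF2 mRNA binding and imprinting, Mest alone passed with the deposited scaling (8.17% of all genes were higher in epithelium). This imprinted gene was 10.6-fold higher in epithelium (21.9 against 2.07). Of 8 measured genes of mannose 6-phosphate sorting, M6pr alone passed with that scaling and was 4.68-fold higher in epithelium (7.77 against 1.66). M6pr encodes the smaller of the mannose 6-phosphate receptors, so the pair of receptor genes differed in opposite directions: Igf2r was higher in cortex and M6pr in epithelium. The opposite signs held after quantile normalization (1.85 and -2.26), after loess (1.94 and -2.20) and when centred on ribosomal protein genes (1.14 and -3.14), where Igf2r was under 3-fold.

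**Figure D4:**
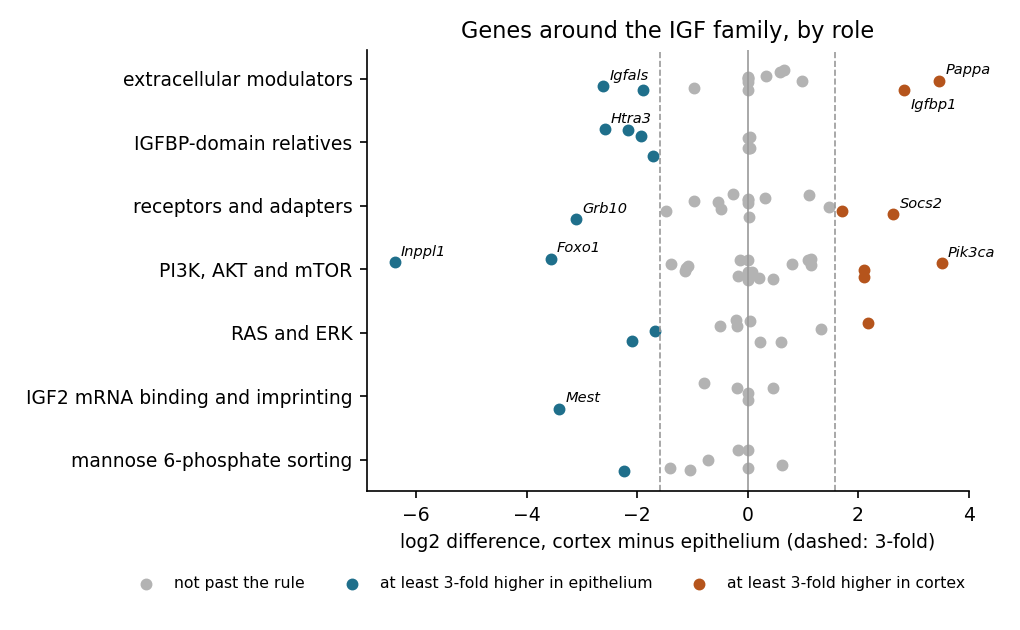
Log2 difference, cortex minus epithelium, of the 84 measured genes of the 7 lists, 1 point per gene, with dashed lines at 3-fold. Coloured points passed the rule (13 towards epithelium, 8 towards cortex), vertical scatter within a row has no meaning, and genes that differ by more than 2.5 are named.

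The labels were set against marker genes, from lists that were also chosen with earlier results of these data known. This is therefore no independent check of the labels. Over all genes the rule counted 8.17% as higher in epithelium and 9.41% as higher in cortex. Of 7 lens epithelium markers 6 were higher in epithelium, and of 9 fiber markers 8 were higher in cortex. Gja1, the other epithelium marker, was dim (0.569 in epithelium, under the floor in cortex). Lim2, the other fiber marker, was 2.70-fold brighter in cortex. The epithelium markers summed to 355 in epithelium and 16.4 in cortex. Fiber markers were bright in both samples, with sums of 1858 in epithelium and 12828 in cortex. Crygs alone stood at 988 in epithelium. The 6 liver markers reached at most 1.16 in cortex and 2.26 in epithelium, both from Trf, and the 4 erythroid markers at most 1.39 and 1.79, both from Hba-a1. A difference between the samples could not show liver RNA present in both. In bulk samples, fewer cells of a type and less RNA per cell cannot be told apart. Of 9 markers of ciliary body, which adjoins the lens, 3 were higher in epithelium and 1 in cortex, their summed intensity was 162 in epithelium and 34.5 in cortex, most of it from Ptgds (123 and 7.54) and Zic2 (20.9 and 18.7), and Zic1, Wfdc1 and Ttr were under the floor on both arrays. Of 7 pigment cell markers 2 were higher in epithelium and 1 in cortex (summed 14.9 in epithelium and 5.09 in cortex). Those in epithelium were Oca2 (17.4-fold, 9.09 against 0.521) and Tyrp1 (at least 6.62-fold, under the floor in cortex). Dct was at least 3.95-fold higher in cortex, and Tyr was under the floor on both arrays. Of 10 stromal fibroblast markers 2 were higher in epithelium and 1 in cortex (summed 21.3 in epithelium and 16.7 in cortex). Those in epithelium were Fbln1 (at least 4.69-fold) and Col1a2 (at least 3.35-fold), both under the floor in cortex. Neither passed with the raised floor. Twist2 was 3.52-fold higher in cortex. Col1a1, Col3a1, Dcn and Lum were under the floor on both arrays, as was the other probe of Fbln1. None of 12 blood vessel and mural cell markers passed with the deposited scaling, 1 was higher in epithelium after quantile normalization, and 2 were when centred on ribosomal protein genes. Pecam1, Cdh5, Kdr, Emcn and Rgs5 were under the floor on both arrays, and the summed intensity was 59.2 in epithelium and 73.7 in cortex. Most of that sum came from Acta2 (41.2 in epithelium and 65.1 in cortex), and the other 11 summed to 18.0 in epithelium and 8.66 in cortex. Pdgfrb was 2.90-fold and Tek 2.58-fold brighter in epithelium, short of the limit. The part of any of these cell types in the Igfbp5 value was not tested. None of 6 macrophage or 5 retina markers passed with the deposited scaling.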

How the data were processed

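Per the labels, poly(A) RNA was copied into biotin-labelled RNA, hybridized to a 1-colour CodeLink mouse array and detected with a Cy5 conjugate. The authors deposited 1 normalized intensity per probe and array (19819 probes), on a linear scale that runs from below 0 to 5411 in cortex and 1061 in epithelium. How they subtracted background and scaled the arrays is not stated in what was used here, so folds depend on an unknown scaling. Missing values (87 in cortex, 97 in epithelium) were dropped. Gene names come from the annotation of the platform, with 1 symbol for 15120 probes, several for 38 and none for 4661.

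The rule of size, the floor and the choice of probe are as given above. The members and lists were chosen with earlier results of these data known. The named genes are all members, list genes past the 3-fold rule (up to 6 a list), Insr, Irs1 and Irs2, and the 3 genes nearest to the member with the largest difference. Marker genes were named after their values had been seen. Precision is limited by the number of arrays. The calling steps were tested on simulated data, with less noise than the spread between probes and with bright genes alone changed. That test checks the code and not the calls made here. Promoter windows, 10 of 10 members matched, are RefSeq's on GRCm38.p6. Alternatives were other scalings, floors, probe summaries and fold limits. Python 3.11.15, numpy 2.4.6, pandas 2.3.3, statsmodels 0.14.6 and matplotlib 3.10.9 were used.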

Additional observations from a re-analysis of the deposited data

How the results depend on the processing

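No paired analysis was possible because each sample has 1 array. With quantile normalization and with loess on brightness (span 0.3), 2 family genes (Igfbp5 and Igfbp7) were higher in epithelium. Centred on ribosomal protein genes, or with a 5-fold limit, 0 were higher in cortex. Of the pathway genes, 23 were higher in epithelium and 4 in cortex when centred on ribosomal protein genes, 20 and 14 with a 2-fold limit, and 6 and 4 with a 5-fold limit. The ribosomal centring moved the median difference, over genes measured in both samples, from 0.03 to -0.88 and the cortex share of all calls from 53.5% to 17.8% (592 genes higher in cortex and 2738 in epithelium, against 1290 and 1120). Over all genes, 2243 and 2101 passed a 2-fold limit and 698 and 477 a 5-fold limit. Without a floor, with the floor at the median, with the mean over probes, with a 2-fold limit and with no minimum brightness, the family counts were 1 and 1. Of 54 values of single members under the 6 alternatives to scaling, floor or probe, 49 moved by less than the pooled SD between probes. The other 5 were Igfbp7 under quantile and loess scaling, Igfbp5 with the mean over probes, and Igfbp3 (2.54) and Igfbp6 (1.19) with no floor, where both arrays were dim. Many of the 49 could not move further. Members under the floor on both arrays were set to 0, and the mean over probes could change only genes with several probes. Ribosomal centring shifted each other member by 0.91, less than that SD. The count of 49 is therefore no measure of stability. The limit that brightness sets is plainest for Igf1, Igf2, Igfbp3, Igfbp4 and Igfbp6, none of which reached the array median on either array.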

Other observations

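Of the 13 protein-coding genes beside the 10 family genes on their chromosomes that had a probe and are not family members, 1 was higher in epithelium and 1 in cortex. Over all genes the rule counted 8.17% and 9.41%, so both neighbour counts lie near background and nothing is read from them. Igfbp1, the neighbour of Igfbp3 on chromosome 11, was the one higher in cortex (25.2 against 3.53), while Igfbp3 was under the floor on both arrays. Top2a, the neighbour of Igfbp4 and a topoisomerase gene of dividing cells, stood at 6.97 in epithelium and was under the floor in cortex, while Igfbp4 stood at 0.666 and 0.606. Tnp1, on the far side of Igfbp5 from Igfbp2, was under the floor on both arrays. Ins2, beside Igf2, was also under it on both. These neighbours were named after their values had been seen.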
